A study of Mus musculus with 2 samples.

Results

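The 10 genes described here are ligands, receptors and vessel-wall genes of angiogenesis: the ligands Vegfa, Pgf, Apln and Angpt2, the receptors Kdr and Flt1, and the vessel genes Esm1, Plvap, Igfbp3 and Cd93. They are 10 of the 55401 genes in the deposited matrices. They were chosen by their levels in these same cells and libraries, so their values are given as a description and no test is attached to them. Single-cell RNA was sequenced from 2 libraries, each from a pool of 3 brains of C57BL/6J mice aged 10 weeks. In the metastasis library the mice had been injected intracranially with the B16/F10-BrM cell line, a line derived from mouse melanoma, and in the naive library the mice were naive. Both pools were enriched with beads against ACSA-2, an astrocyte surface antigen, so vessel cells are those that came through that enrichment. The submitters exchanged the titles of the 2 records after release, and the present titles are used.

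There is 1 library per condition. No replicate error exists for any difference between conditions, and the 3 animals of a pool cannot be told apart. Intervals are 95% intervals that cover counting error only. A gene is called higher or lower by a rule of size, at least 2-fold with at least 20 UMIs (unique molecules counted) in both libraries together.

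Vessel growth starts when VEGF-A, a secreted growth factor made mainly by astrocytes in brain, binds VEGFR2 (Kdr) on endothelial cells, while VEGFR1 (Flt1) binds the same ligand tightly and signals weakly. Endothelial tip cells at the front of a sprout are known for high Kdr, Apln, Angpt2 and Esm1 and for low Flt1 relative to stalk cells. Healthy brain capillaries form a barrier and lack Plvap, the protein of the diaphragm of fenestrae and caveolae, which appears in leaky vessels.

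After barcode limits of 1000 UMIs, 500 genes and at most 20% mitochondrial UMIs, and removal of the highest doublet scores, 12920 cells were kept in the metastasis library and 13155 in the naive library, with medians of 2814 and 2765 UMIs. Cells were clustered without the members, and clusters were named from marker genes. The endothelial-like class held 207 cells (1.60% of kept cells) and 124 cells (0.943%). Its summed UMIs were 2763254 and 393806. All 12 defining endothelial markers, among them Cldn5, Pecam1 and Cdh5, were detected in this class in both libraries, with summed levels of 10053 and 22199 CPM (a gene's UMIs over all UMIs of the class, on the usual CPM scale). Melanoma-like cells numbered 684 and 19, and Pmel, a melanocyte gene, had 174742 and 4774 UMIs over all barcodes. How tumour RNA came to the naive library was not tested. The libraries shared 47 kept barcodes, and without them the same number of members was called.

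The endothelial-like cells fell into 6 subclusters of 2 kinds. Subclusters 0, 3 and 9 held cells of both libraries (51 metastasis and 122 naive cells, the shared subclusters). They were led by the barrier vessel genes Ly6c1, Slco1a4 and Cldn5. Subclusters 2, 4 and 5 held 156 metastasis cells and 2 naive cells (the metastasis-only subclusters), and were led by Igfbp3, Col4a1 and Emcn. The 2 naive cells carried no UMI of any member or of any of the 12 endothelial markers. With 1 library per condition, a subcluster from 1 library cannot be told apart from that library. Depth differed with the kind of subcluster: the median was 20563.5 UMIs per cell in subcluster 4 and 24884 in subcluster 5, but 2077 in subcluster 2, near that of the shared cells. Subclusters 4 and 5 (48 and 34 cells) held 1354014 and 940608 of the 2763254 metastasis UMIs of the class, and the shared cells 180104. Class levels are summed UMIs, so metastasis levels and calls in the whole class weigh the cells of subclusters 4 and 5 most.

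**Figure D1:**
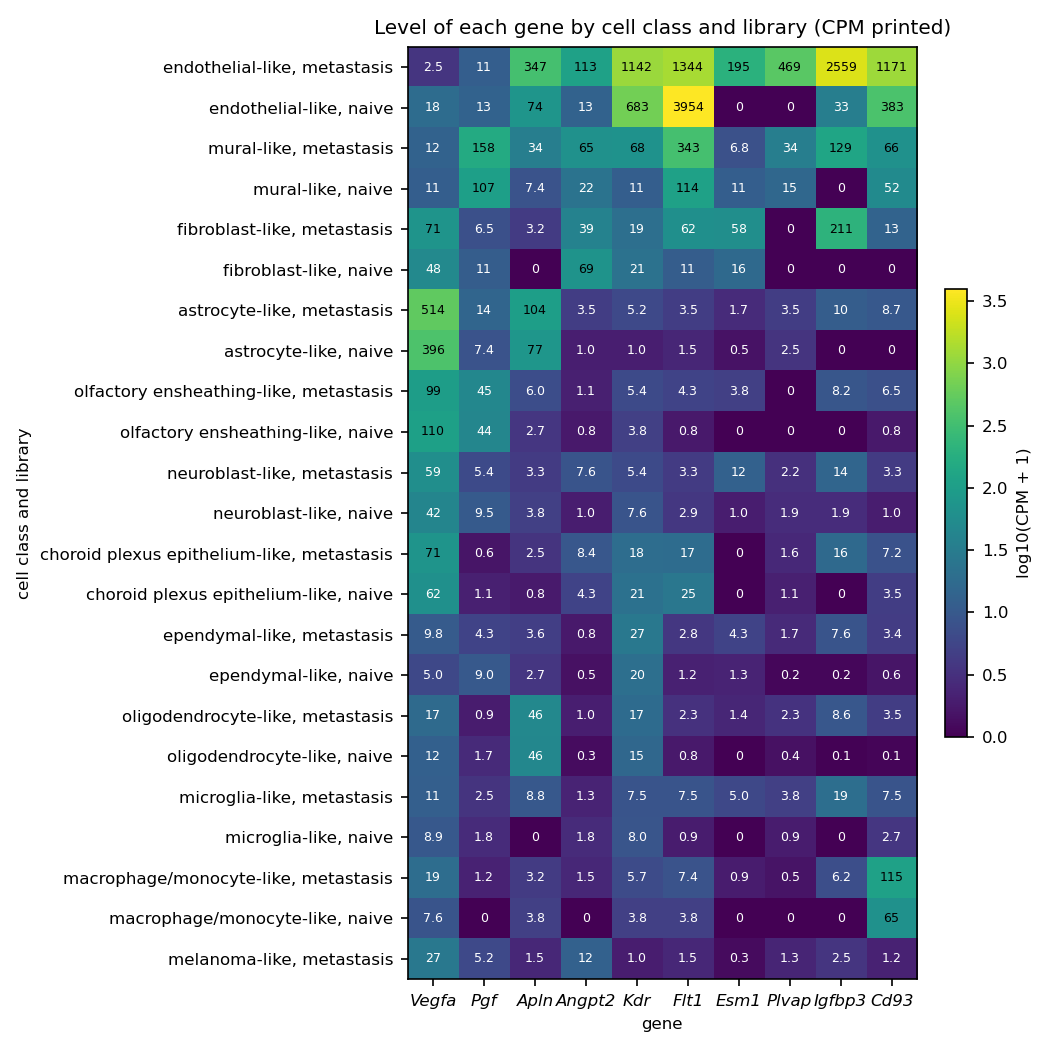
Level of each member (columns) in each cell class and library (rows), as CPM of summed UMIs, printed in each cell and coloured by log10(CPM + 1). Kdr, Flt1, Igfbp3, Plvap, Esm1 and Cd93 were highest in endothelial-like cells of one library or the other, and Vegfa was highest in astrocyte-like cells of both.

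Of the ligands, Vegfa had its highest level (CPM) in astrocyte-like cells. Its level there was 514 CPM in the metastasis library (296 UMIs, 324 cells) and 396 CPM in the naive library (807 UMIs, 1017 cells). Both stood above the free RNA of barcodes with 10 to 100 UMIs, which held 38.9 and 47.9 CPM, and above that of barcodes with 100 to 300 UMIs (24.5 and 23.2 CPM). The log2 ratio of metastasis over naive was 0.38 (interval 0.18 to 0.57), under the 2-fold limit. With classes set cell by cell from marker UMIs in place of clusters, it was 0.0030. After thinning every cell to 1000 UMIs, a Vegfa UMI was found in 37.3% (metastasis) and 32.2% (naive) of the class, or 49.1% and 49.0% unthinned, at median depths of 1627 and 1799 UMIs. In microglia-like cells, which carried little Vegfa, the thinned shares were 1.06% and 0.969%, at median depths of 1523 and 1699 UMIs.

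Next in the order of Vegfa levels came olfactory ensheathing-like cells (98.9 and 110 CPM), the glia that wrap olfactory axons. Choroid plexus epithelium-like cells had 71.5 and 62.0 CPM, and fibroblast-like cells 71.5 and 48.1 CPM from 22 and 9 UMIs. The intervals of their ratios included 0, so the libraries did not differ beyond counting error in these 3 classes. Neuroblast-like cells had 58.5 and 41.8 CPM from 54 and 44 UMIs (log2 ratio 0.48, −0.12 to 1.09). Oligodendrocyte-like cells had 16.6 and 11.6 CPM (log2 ratio 0.51, 0.25 to 0.78), below the free RNA of their own library in both ranges of barcodes. That sets 2 levels side by side and does not give the part of free RNA in the class. Free RNA was estimated as a fraction of 0.096 of the class's UMIs in metastasis and 0.102 in naive. Macrophage/monocyte-like cells had 18.6 CPM in metastasis, and 7.61 CPM from 2 UMIs in naive. The log2 ratio of 1.29 (−0.59 to 4.34) passed the 2-fold rule, but its interval included 0. Ependymal-like cells had 9.82 and 5.02 CPM (0.97, 0.41 to 1.52), also below the free RNA of both ranges.

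Melanoma-like cells of the metastasis library had 26.8 CPM of Vegfa (24.6 to 29.1), between the 2 free RNA values of that library. The part of free RNA in the UMIs of these cells was not estimated. The cells were deep (median 29911 UMIs), and the class held 29.5% of the Vegfa UMIs and 31.3% of all UMIs in kept cells. Astrocyte-like cells held 15.6% of the Vegfa UMIs of kept cells in metastasis and 41.9% in naive. Over all kept cells the metastasis library had 28.4 CPM of Vegfa and the naive library 40.0 CPM (log2 ratio −0.50, −0.59 to −0.40). The ratio within the astrocyte-like class was above 0 and that over all kept cells below 0. Among the members, 6 were higher over all kept cells and 0 lower, where 13.1% of the 21734 genes measured were higher and 15% were lower. These were Kdr, Angpt2, Esm1, Plvap, Igfbp3 and Cd93. A ratio over all kept cells mixes the level in a class with the share of that class. Endothelial-like cells held 2763254 of 66776925 UMIs in metastasis and 393806 of 48157784 in naive. The log2 ratio of Kdr was 1.48 over all kept cells and 0.74 in endothelial-like cells, and that of Flt1 0.75 and −1.56.

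**Figure D2:**
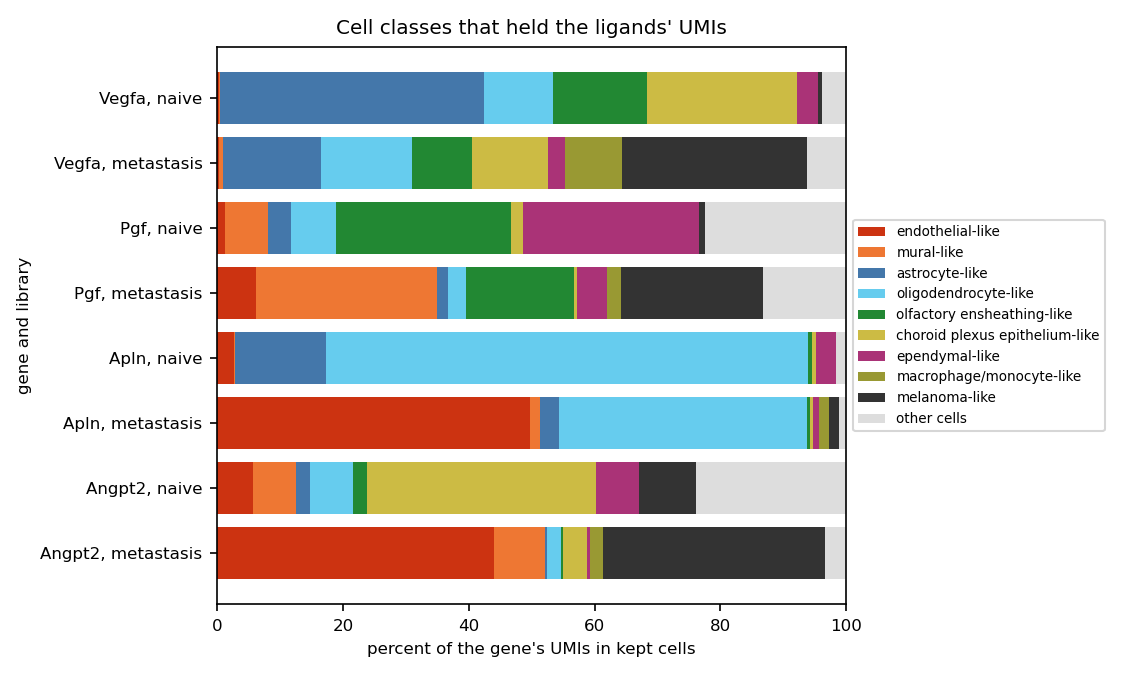
Percent of each ligand's UMIs in kept cells (x axis) that lay in each cell class (colours), for 4 ligands in each library (bars). Astrocyte-like cells held 41.9% of Vegfa UMIs in naive and 15.6% in metastasis, where melanoma-like cells held more (560 UMIs against 296). Endothelial-like cells held 49.7% of Apln UMIs and 44.1% of Angpt2 UMIs in metastasis.

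Pgf, placental growth factor, a ligand of Flt1 but not of Kdr, was highest in metastasis in mural-like cells, the pericytes and smooth muscle cells that wrap vessels. In naive, mural-like cells and an unnamed cluster led by Ccn3 and Slc47a1 had the highest levels, and their intervals overlapped. Mural-like cells had 158 CPM in metastasis (139 UMIs) against 107 CPM in naive (29 UMIs), and the interval of the log2 ratio of 0.56 ran from −0.03 to 1.19. A mural-like subcluster with 68 metastasis cells and no naive cell, subcluster 7, held 201 CPM and 117 of the 139 UMIs. Subcluster 8, in both libraries, had 281 CPM from 7 UMIs and 187 CPM from 23 UMIs. The level in the unnamed cluster was 85.0 CPM in the metastasis library against 112 CPM in the naive one (78 UMIs, 230 cells), and olfactory ensheathing-like cells 45.1 and 44.4 CPM. Ependymal-like cells, which line the ventricles, had 4.34 and 9.04 CPM (log2 ratio −1.06, −1.77 to −0.40), and Pgf was the 1 member lower there, beside 1.57% of all genes. This call depended on the class: a cluster of 664 metastasis and 13 naive cells held all 8 ependymal markers at 2-fold or more but stayed unnamed, and with it added the log2 ratio of Pgf was −0.74 (−1.28 to −0.23), within 2-fold. Pgf in endothelial-like cells was 10.9 CPM (metastasis, 30 UMIs) and 12.7 CPM (naive, 5 UMIs, 4.12 to 29.6 CPM). Free RNA held 11.7 and 3.68 CPM in barcodes with 10 to 100 UMIs, and 8.26 and 8.79 CPM in those with 100 to 300.

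Apln encodes apelin, the ligand of the receptor Aplnr on endothelial cells. It had sources outside the vessel wall. Astrocyte-like cells had 104 and 77.0 CPM (60 and 157 UMIs) and oligodendrocyte-like cells 46.3 and 45.9 CPM (760 and 834 UMIs), with log2 ratios of 0.44 (−0.02 to 0.88) and 0.01 (−0.13 to 0.16). In neither class did the libraries differ beyond counting error. Endothelial-like cells had 347 CPM in metastasis (960 UMIs in 107 of 207 cells) and 73.6 CPM in naive (29 UMIs in 4 of 124 cells). The log2 ratio was 2.24 (1.71 to 2.82). In the naive library 24 of the 29 UMIs came from 2 cells, a spread between cells that the interval does not hold. Oligodendrocyte-like cells held 76.7% of the Apln UMIs of kept cells in naive and 39.4% in metastasis, where endothelial-like cells held 49.7%.

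Angpt2 encodes angiopoietin-2, a ligand of the receptor Tek that loosens the contact of mural cells with the endothelium. Endothelial-like cells had 113 CPM in metastasis (311 UMIs) against 12.7 CPM in naive (5 UMIs). The log2 ratio was 3.15 (1.91 to 4.78). Free RNA of the naive library held 14.7 CPM in barcodes with 10 to 100 UMIs and 2.24 CPM in the deeper range of 100 to 300 UMIs, and the interval of the naive class ran from 4.12 to 29.6 CPM. Mural-like cells had 64.6 and 22.1 CPM (57 and 6 UMIs), and fibroblast-like cells 39.0 and 69.5 CPM (12 and 13 UMIs). Melanoma-like cells of the metastasis library had 11.9 CPM (10.5 to 13.5), beside 11.7 and 8.53 CPM in the 2 ranges of free RNA, and held 35.3% of the Angpt2 UMIs of its kept cells. The part of free RNA in the Angpt2 of these cells was not estimated. The Angpt2 gene overlaps Mcph1 on the opposite strand, and no source used here says whether the counting used strand.

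Of the receptors, Kdr and Flt1 differed in opposite directions in endothelial-like cells. Kdr was 1142 CPM in metastasis (3156 UMIs) and 683 CPM in naive (269 UMIs). The log2 ratio of 0.74 (0.56 to 0.93) was under the 2-fold limit. Flt1 was 1344 CPM in metastasis (3715 UMIs) and 3954 CPM in naive (1557 UMIs). The log2 ratio was −1.56 (−1.64 to −1.47), or 2.94-fold lower, and Flt1 was the 1 member lower in this class.

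Receptor levels were also read by kind of subcluster. In the shared subclusters Kdr was 700 CPM in metastasis against 690 CPM in naive (log2 ratio 0.02, −0.30 to 0.33), and Flt1 was 4164 and 3995 CPM (0.06, −0.07 to 0.19). In the metastasis-only subclusters Kdr was 1173 CPM and Flt1 1148 CPM. Within the metastasis library, the metastasis-only subclusters thus had 0.75 more Kdr (0.49 to 1.01) and 1.86 less Flt1 on the log2 scale (−1.86, −1.98 to −1.74) than the shared ones. Subcluster 2, whose depth was like that of the shared cells, had 1081 CPM of Kdr and 1022 CPM of Flt1. Subclusters 4 and 5 had 1317 and 994 CPM of Kdr and 1371 and 865 CPM of Flt1.

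Outside the endothelium, mural-like cells had 343 CPM of Flt1 in metastasis (303 UMIs) against 114 CPM in naive (31 UMIs). The log2 ratio was 1.59 (1.05 to 2.17). It was within 2-fold with limits of 500 UMIs and 250 genes (0.86) and with each cell named by its own marker UMIs (0.53). Flt1 was 298 CPM in the metastasis mural-like subcluster 7, 530 CPM in subcluster 1 of the same library, and 146 CPM in subcluster 8 of naive. Endothelial markers summed to 967 and 877 CPM in mural-like cells. Subcluster 1 had endothelial as its next best marker list, and the part of endothelial RNA in these values was not tested. Kdr was 68.0 and 11.1 CPM in mural-like cells and at most 26.6 CPM in the other classes with 50 cells or more in both libraries. Ependymal-like cells had 26.6 and 19.9 CPM, choroid plexus epithelium-like cells 18.1 and 21.3 CPM and oligodendrocyte-like cells 17.0 and 14.9 CPM. Free RNA held 42.8 CPM of Kdr in metastasis and 7.37 CPM in naive.

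Among the vessel genes, Plvap and Esm1 had no UMI in naive endothelial-like cells. Plvap was 469 CPM in metastasis (1295 UMIs in 108 cells) and 0 of 393806 UMIs in naive, at least 61.5-fold higher with the naive sum set to a floor of 3 UMIs. Esm1, which encodes endocan, a proteoglycan of sprouting endothelium, was 195 CPM (538 UMIs in 86 cells) against 0, at least 25.6-fold higher. In the shared subclusters of the metastasis library both genes also had 0 UMIs of 180104. A count of 0 there allows up to 16.7 CPM, compared with 501 CPM of Plvap and 208 CPM of Esm1 in the metastasis-only subclusters. Plvap overlaps Gtpbp3 and Esm1 overlaps Gzmk on the opposite strand.

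Igfbp3, a secreted protein that binds insulin-like growth factors, had the largest ratio of the members with UMIs in both libraries. It was 2559 CPM in metastasis (7070 UMIs in 142 cells) and 33.0 CPM in naive (13 UMIs in 6 cells), 77.5-fold higher (log2 ratio 6.28, 5.50 to 7.19). In the shared subclusters it was 44.4 and 33.4 CPM (8 and 13 UMIs). Of these, 6 of 8 in metastasis and 12 of 13 in naive lay in subcluster 3, which had Gkn3, an arterial gene, among its leading genes. After thinning to 1000 UMIs, 75.6% of metastasis-only cells had an Igfbp3 UMI, as against 3.92% of shared cells in metastasis and 3.28% in naive. In microglia-like cells, with a median of 1523 UMIs, the thinned share was 2.13% in metastasis, and the free RNA of that library held 125 CPM of Igfbp3 against 0 in naive.

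Cd93, a membrane protein of endothelial and myeloid cells that binds the matrix protein multimerin-2, was 1171 CPM in metastasis (3237 UMIs) and 383 CPM in naive (151 UMIs). The log2 ratio was 1.61 (1.38 to 1.86). In the shared subclusters it was 455 and 388 CPM (0.23, −0.17 to 0.63). Macrophage/monocyte-like cells had 115 CPM (1050 UMIs, 1658 cells) and 64.7 CPM (17 UMIs, 92 cells), a log2 ratio of 0.83 (0.14 to 1.61). Mural-like cells had 65.7 and 51.6 CPM (58 and 14 UMIs). Of these, 54 of 58 in metastasis lay in mural-like subcluster 1, and the 14 in naive came from 3 cells. In microglia-like cells Cd93 was 7.53 and 2.67 CPM.

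Counted together, 6 of the 9 members measured in endothelial-like cells were higher in metastasis (Angpt2, Apln, Esm1, Plvap, Igfbp3 and Cd93) and 1 was lower (Flt1), while Vegfa had only 14 UMIs there. In the same class 17.2% of 10076 genes were higher and 18.4% lower. The median log2 ratio of the members was 2.24, with genes at 0 set to their bound, and that of all genes −0.05. Scaling by the median ratio of genes shifted every log2 ratio up by 0.40. It raised the higher calls among all genes from 48.4% to 72.05% of all calls, and added Kdr as a 7th higher member (log2 ratio 1.14). Flt1 stayed lower at −1.16, and the sign of Pgf turned from −0.23 to 0.17.

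In the shared subclusters alone, 0 of 5 measured members were higher and 1 was lower, where 2.86% and 4.57% of 5147 genes were. The lower one was Apln, with 1 UMI in metastasis and 29 in naive, the 29 that came from 4 cells. Within the metastasis library, 6 of 9 members were higher and 1 lower in the metastasis-only than in the shared subclusters, where 17.8% and 20.2% of 9535 genes were. Subcluster 5 and the shared subclusters 3 and 9 had Rgs5, a pericyte gene, among their leading genes. Without these 3 subclusters 6 members were still higher and 1 lower.

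**Figure D3:**
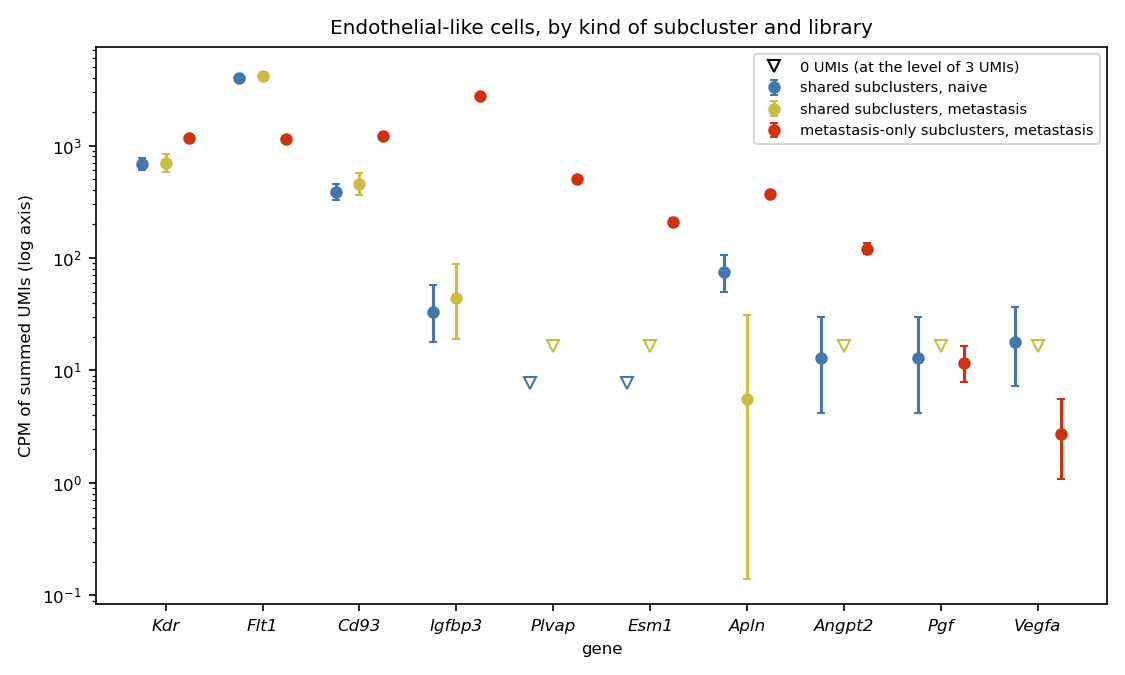
CPM of summed UMIs (log axis) of each member in endothelial-like cells, for shared subclusters in naive and metastasis and for metastasis-only subclusters, with exact Poisson 95% intervals. Open triangles stand at the level of 3 UMIs where the sum was 0. The points of the shared subclusters lie together for Kdr, Flt1, Cd93 and Igfbp3, and the metastasis-only points lie apart from both.

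The members varied among metastasis-only cells. In the deep subclusters 4 and 5, all 6 higher members had a UMI in the same cell in 37 of 82 cells, and 78 cells had at least 4 of them. In the shallower subcluster 2 the counts were 9 and 34 of 74 cells. None of the 51 shared cells of metastasis or the 122 of naive had as many as 4. The 6 had been picked as higher in this class, so that contrast was set by the choice and adds no result. Cells were not thinned for these counts. The deep cells had a median of 22458 UMIs, and the shared cells 2827 in metastasis and 2424.5 in naive. Of the 82 deep cells, 57 had an Esm1 UMI and 25 had none, at medians of 21793 and 23924 UMIs. This split was mixed with subcluster, since 29 of 48 cells of subcluster 4 and 28 of 34 of subcluster 5 had Esm1. The part of subcluster was not tested, and no intervals were computed for the split. Cells with Esm1 had 136 CPM of Angpt2 and those without had 58.3 CPM. Igfbp3 was 3204 and 1688 CPM, Plvap 557 and 386 CPM, and Cd93 1334 and 998 CPM. Apln (345 and 388 CPM), Kdr (1232 and 1088 CPM) and Flt1 (1133 and 1227 CPM) were closer. A Plvap UMI was found in 53 of the 57 cells with Esm1 and in 19 of the 25 without. In subcluster 2, 29 cells had an Esm1 UMI and 45 had none, at medians of 3471 and 1490 UMIs, and not all members kept this order. Angpt2 (253 and 127 CPM) and Cd93 (1441 and 869 CPM) were again higher in cells with Esm1, Apln was 612 and 253 CPM, and Igfbp3 was 3040 and 2845 CPM. Plvap was lower in cells with Esm1, 447 against 591 CPM.

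Members were also counted in the other classes, where many of the levels were low. In mural-like cells 6 of 8 measured members were higher and 0 lower, where 20.2% and 14.2% of genes were. Flt1 (343 CPM) and Igfbp3 (129 CPM) had the highest levels among the 6, beside 38.9 and 125 CPM in the metastasis free RNA. Kdr (68.0 CPM) and Angpt2 (64.6 CPM) stood beside 42.8 and 11.7 CPM there. Apln and Plvap, at 34.0 CPM each, stood beside 31.1 and 23.4 CPM. The log2 ratio of Plvap was 1.21 (−0.30 to 3.17), an interval that included 0. Of 114 Igfbp3 UMIs in mural-like cells of metastasis, 111 lay in subcluster 1, as did 54 of 60 Kdr, 28 of 30 Apln and 27 of 30 Plvap UMIs. In oligodendrocyte-like cells 6 of 10 were higher and 0 lower, beside 4.6% and 1.41% of genes, but Igfbp3 there was 8.60 CPM, Plvap 2.32 CPM and Cd93 3.47 CPM, all below the metastasis free RNA (125, 23.4 and 58.4 CPM). Ependymal-like cells had 4 of 8 higher (2.82% of genes), and 3 of 8 with the unnamed cluster added (3.61% of genes), since Flt1 then had a log2 ratio of 0.95. In metastasis the 4 were Igfbp3 (7.55 CPM), Esm1 (4.34 CPM), Cd93 (3.40 CPM) and Flt1 (2.83 CPM). Each was below the metastasis free RNA (125, 15.6, 58.4 and 38.9 CPM), whose part in them was not tested. Choroid plexus epithelium-like cells had 2 of 6 higher (2.98%), Igfbp3 (16.2 CPM) and Cd93 (7.18 CPM), also below that free RNA. Fibroblast-like cells had 3 of 5 (7.14%), Igfbp3, Esm1 and Flt1, and macrophage/monocyte-like cells 1 of 6 (6.57%), Vegfa. In the last 3 classes 0 members were lower, where 1.2%, 3.83% and 20.1% of genes were. In fibroblast-like cells the 65 Igfbp3 UMIs of metastasis (211 CPM) came from 7 cells, and after thinning each cell to 1000 UMIs the log2 ratio of at least 3.72 was at least 0.24. Astrocyte-like cells had 0 of 3 higher or lower, where 2.29% and 3.56% of genes were, and olfactory ensheathing-like cells also 0 of 3 (2.54% and 1.21%).

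Reference promoters were available for 7 of the 10 members in RefSeq (GRCm38.p6). Shown are the 250 bases upstream of the start of 3 members that were higher together in metastasis-only cells (Esm1, Apln and Igfbp3) and of Flt1, which was lower there, 5′ to 3′ on the gene's strand. Capitals mark AGGAAG (the core bound by ETS factors, many of which act in endothelium), ACGTG (the core of the hypoxia response element) and TATAAA, on either strand.
Esm1, chr13:113209409-113209658, plus strand: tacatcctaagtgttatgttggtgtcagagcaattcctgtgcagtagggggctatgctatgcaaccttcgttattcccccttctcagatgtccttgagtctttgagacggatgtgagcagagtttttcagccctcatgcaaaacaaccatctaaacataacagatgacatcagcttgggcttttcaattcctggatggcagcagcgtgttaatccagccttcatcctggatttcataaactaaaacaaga
Apln, chrX:48034854-48035103, minus strand: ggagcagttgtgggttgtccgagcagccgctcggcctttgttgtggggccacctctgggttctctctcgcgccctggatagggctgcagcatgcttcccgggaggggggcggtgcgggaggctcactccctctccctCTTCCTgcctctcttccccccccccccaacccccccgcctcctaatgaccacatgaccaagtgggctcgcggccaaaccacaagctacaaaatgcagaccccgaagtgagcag
Igfbp3, chr11:7213924-7214173, minus strand: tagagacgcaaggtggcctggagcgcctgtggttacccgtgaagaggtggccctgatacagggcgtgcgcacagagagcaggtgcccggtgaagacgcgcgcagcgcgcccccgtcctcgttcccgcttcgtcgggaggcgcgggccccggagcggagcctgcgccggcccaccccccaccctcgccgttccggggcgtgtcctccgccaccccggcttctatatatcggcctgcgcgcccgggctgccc
Flt1, chr5:147726012-147726261, minus strand: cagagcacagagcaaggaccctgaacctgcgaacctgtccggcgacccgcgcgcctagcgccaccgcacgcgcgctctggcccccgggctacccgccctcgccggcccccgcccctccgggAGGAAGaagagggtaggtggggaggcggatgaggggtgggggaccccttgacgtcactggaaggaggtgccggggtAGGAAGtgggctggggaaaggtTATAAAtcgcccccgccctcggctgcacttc
The Flt1 window held 2 matches to AGGAAG and 1 to TATAAA, and the Apln window 1 match to AGGAAG. The windows of Esm1 and Igfbp3 held no match to any of the 3. Of 32851 promoter windows of the same length, 29.5% held AGGAAG, 16.6% ACGTG and 12.4% TATAAA. The GC content was 44% for Esm1, 65.2% for Apln, 73.2% for Igfbp3 and 70.4% for Flt1. A match is a run of letters and no evidence of a bound site.

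The genes span, in GRCm38 (GENCODE M21, all protein coding), chr17:46016993-46032369 (Vegfa), chr12:85166635-85177790 (Pgf), chr5:75932827-75978458 (Kdr), chr5:147561604-147726011 (Flt1), chr8:18690263-18741562 (Angpt2), chrX:48025146-48034853 (Apln), chr13:113209659-113218098 (Esm1), chr8:71497765-71511752 (Plvap), chr11:7206086-7213923 (Igfbp3) and chr2:148436640-148443563 (Cd93). Esm1 lies on the plus strand and the other 9 on the minus strand. Kdr and Flt1 share chromosome 5, and Angpt2 and Plvap share chromosome 8.

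The members' partners were read from lists of related genes in endothelial-like cells, where 17.2% of all genes were higher and 18.4% lower. Of 20 other receptors, 6 were higher and 4 lower, with a median log2 ratio of −0.13 against −0.05 over all genes. Aplnr, the receptor of apelin, was 207 CPM in metastasis against 20.3 CPM in naive (573 and 8 UMIs; log2 ratio 3.35, 2.36 to 4.57), so ligand and receptor of the apelin pair were both higher in this class. Plxnd1, a semaphorin receptor, had a log2 ratio of 2.12, Cxcr4, the receptor of Cxcl12, 2.40, and Flt4, the receptor of VEGF-C, 1.24. Tek, the receptor of Angpt2, was 108 and 284 CPM (−1.39, −1.71 to −1.07), and Ephb4 (−1.33), Pdgfrb (−1.51) and the BMP receptor Bmpr2 (−1.58) were the other lower ones. Pdgfrb is a mural gene, and mural markers summed to 1914 and 3365 CPM in endothelial-like cells. Their part in its ratio was not tested.

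Of 12 other ligands measured, 2 were higher and 4 lower, beside the same shares of all genes, and their median log2 ratio was −0.04. Tgfb1 was 173 CPM in metastasis against 73.6 CPM in naive (1.23), and Vegfb 34.7 and 15.2 CPM (1.19, 0.01 to 2.67). Ptn, which encodes pleiotrophin, was 485 and 3542 CPM (−2.87), Sema3c 34.4 and 564 CPM (−4.04), and Vegfc 4.70 and 55.9 CPM (−3.57). Mdk had 21 and 7 UMIs (−1.23), and its interval reached 0.25. The Notch ligand Dll4, a tip cell gene, was 114 and 60.9 CPM (0.91, 0.31 to 1.57), under the 2-fold limit.

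Of 20 genes of tip cells and tumour endothelium, 16 were higher and 0 lower, with a median log2 ratio of 2.20. Kcne3, a potassium channel subunit, was 301 CPM against 0 UMIs in naive (log2 ratio at least 5.30). The laminin chain Lamb1 (4.11) and the urokinase receptor Plaur (3.83) followed. Cd34 (0.76), Sox4 (0.21), Insr (0.21) and Unc5b (−0.28) were the 4 within 2-fold. Of 9 measured inhibitors of vessel growth, 4 were higher, Sema3f (2.77), Col18a1 (2.69), Spry4 (2.35) and Dusp5 (at least 1.25), and the protease inhibitor Timp3 was lower (−1.03).

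Barrier genes went the other way. Of 18 transporters, junction genes and Wnt pathway genes of the blood-brain barrier, 0 were higher and 16 lower, with a median log2 ratio of −2.69. Slco1a4, an organic anion transporter, was 153 and 1897 CPM (−3.63), the glucose transporter Slc2a1 195 and 1277 CPM (−2.71), and the efflux pump Abcb1a 145 and 1249 CPM (−3.10). The 2 within 2-fold were the Wnt receptor Fzd4 (0.52) and its co-activator Adgra2 (−0.02). Capillary genes were lower in 7 of 8, among them Cxcl12 (−3.69) and Spock2 (−3.80), with Rgcc the higher one (1.75). Some capillary genes also stand in the barrier list, and the receptor and tip cell lists share Aplnr, Cxcr4 and Unc5b. Counts of lists that overlap are not separate. All 7 measured genes of fenestrated choroid plexus vessels were higher, including Gpihbp1 (248 CPM against 0 UMIs; at least 5.03) and Igfbp4 (4.24); Aplnr and Rgcc stand in this list too. Arterial genes were lower in 6 of 9 and higher in 1, Gja4 (1.97). Venous genes were higher in 2 of 8, Lrg1 (at least 3.01) and Ackr1 (at least 1.25), and lower in 2, Slc38a5 (−1.03) and Il6st (−1.31). Of 16 endothelial transcription factors, 9 were lower, such as the flow-responsive Klf4 (−3.32) and Klf2 (−2.50), and 0 higher.

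Hypoxia targets showed no common direction. Of 11 measured, 2 were higher, the glycolytic genes Pgk1 (1.46) and Ldha (1.15), and 3 were lower, Slc2a1, Bnip3 (−2.42) and Ndrg1 (−2.34). Slc2a1 is also a barrier gene. All 10 proliferation genes were higher, with a median log2 ratio of 5.20: Ube2c had 1360 UMIs in metastasis and 1 in naive (7.60), and Top2a had 1140 and 0 (at least 5.76).

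In the shared subclusters few genes of these lists were called, as of all genes (2.86% higher and 4.57% lower). Of 11 measured tip cell genes, 0 were higher or lower, and of 18 barrier genes 1 was higher (Reck, 1.11) and 1 lower (Adgra2, −1.09). In the venous list 3 of 5 measured genes were higher: Vwf, the clotting factor carrier (378 and 126 CPM, 1.59), the adhesion molecule Vcam1 (133 and 51.3 CPM, 1.38) and Slc38a5 (328 and 162 CPM, 1.02). These 3 rested on 68, 24 and 59 UMIs in 51 metastasis cells. Other calls there were Nrp2 (139 and 69.3 CPM), Sox18 (1.02) and Tal1 (1.11) as higher and Vegfc (−1.02) and Klf4 (−1.04) as lower.

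**Figure D4:**
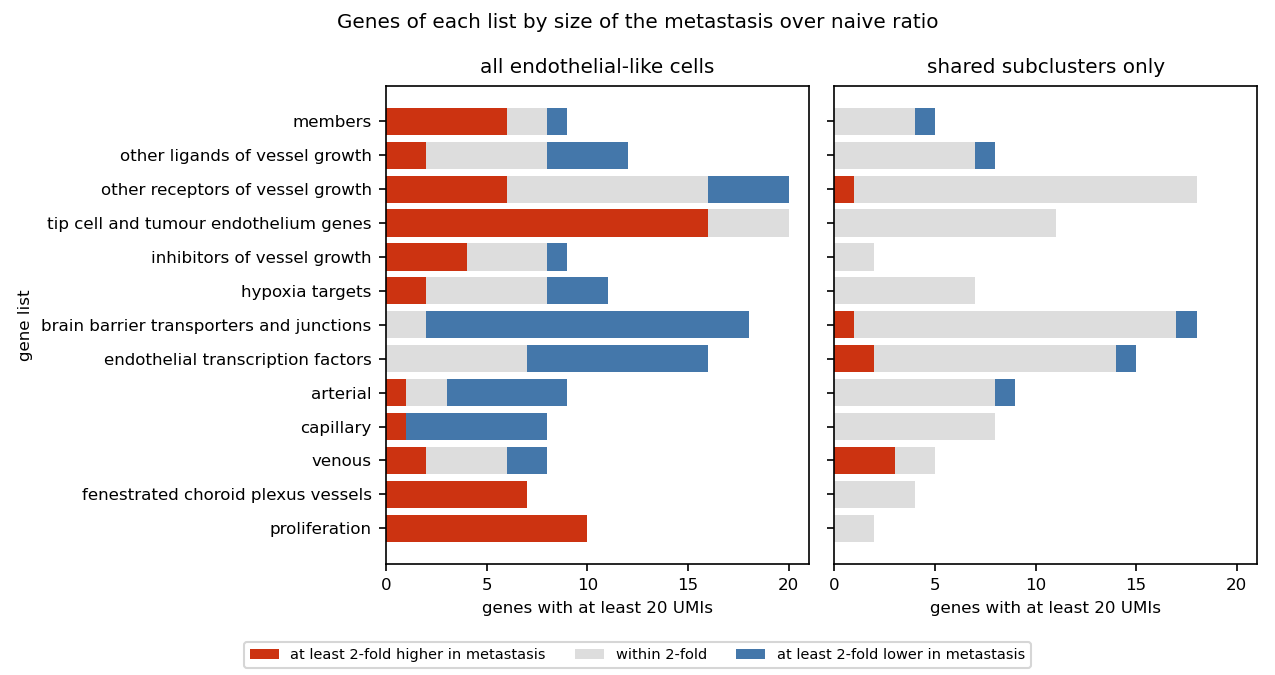
Number of genes with at least 20 UMIs (x axis) in each list (rows) that were at least 2-fold higher, within 2-fold or at least 2-fold lower in metastasis, for all endothelial-like cells (left) and for the shared subclusters only (right). On the left, 16 of 20 tip cell genes are higher and 16 of 18 barrier genes lower, and on the right nearly all lists lie within 2-fold.

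Markers of other cell types in endothelial-like cells also differed between the libraries. Choroid plexus epithelium markers summed to 3586 CPM in metastasis against 12237 CPM in naive (79838 and 219076 CPM in free RNA). Haemoglobin and the other erythroid genes summed to 1398 and 19804 CPM. Oligodendrocyte markers were 622 and 1546 CPM, and melanoma markers 134 and 17.8 CPM. Macrophage/monocyte markers were 87.2 and 20.3 CPM, with Arg1 at 0 in metastasis and 8 of 11 markers at 0 in naive. Their part in the members' values was not tested. After subtraction of the free RNA profile 6 members were still higher and 1 lower.

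Across 28 class-by-library profiles, the genes most like each member, out of 16839 compared by Pearson's r of log2(CPM + 10), were as follows, as a description in which profiles share library and depth. Flt1 was most like Egfl7 (0.97), Adgrf5 and Foxf1, and Kdr most like Tmem252 (0.94), Myct1 and Adcy4. Plvap was most like Gpihbp1 (0.97), Ces2e and Lrg1, and Cd93 most like Nostrin (0.90), Scarf1 and Ets2. Igfbp3 was most like Tfpi2 (0.92), Aplnr and Exoc3l2, and Esm1 was most like Tfpi2 (0.83), Igfbp3 and Exoc3l2. Of the ligands, Vegfa was most like Gpr162 (0.90), Aldh1l1 and Csdc2. Pgf was most like Tgfb3 (0.89), Egflam and Dcbld2. Angpt2 was most like Rhoj (0.88), Ccn2 and Loxl2. Apln had the lowest likeness, with Sema7a (0.78), Hdac7 and Pcdh1.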

How the data were processed

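The deposited matrices are raw UMI counts by gene and barcode, with no cell filter; the authors used STARsolo and GRCm38, per the submitters' processing notes. Its version, annotation and strand setting are not given in the sources used here. The members and gene lists were chosen with earlier results of these data known. Scrublet in scanpy 1.11.5 scored doublets per library, and the highest 6% of scores were removed (825 and 840 barcodes), because its automatic limit marked 0 in metastasis and 855 in naive. Cells of both libraries were clustered together (2000 variable genes without the members and lists of other ligands, receptors and tip cell genes, 30 components, 15 neighbours, Leiden resolution 1). Vessel clusters and unnamed clusters were clustered again. Thresholds for naming (mean log2 fold of at least 1, at least 3 markers at 2-fold, no closer list) were chosen with the clusters in view. The classes are rebuilt and may differ from those of the study. For each class and library, counts were summed over its cells and divided by their total (CPM). Ratios have exact conditional binomial intervals, sums exact Poisson intervals and shares Clopper-Pearson intervals. A sum of 0 was set to 3 UMIs, which gives a bound at that floor (written as at least) and not the limit of the 95% interval. Free RNA was taken from barcodes with 10 to 100 UMIs. Of 320 symbols looked up, 316 were in the files. Named genes were the 10 members, up to 4 highest and 4 lowest of each list in endothelial-like cells, and the 3 genes most like each member; genes called in shared subclusters and tabulated Esm1-positive cells were named after their values were seen. On simulated Poisson counts for endothelial-like cells, 96.9% of 9876 unchanged genes lay inside their interval, and 95% of 100 genes at a log2 ratio of 1, so the interval was tested for its arithmetic only.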

Additional observations from a re-analysis of the deposited data

Results flagged for a closer look

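The log2 ratio of Flt1 in metastasis over naive had opposite signs between cell classes, with intervals apart from 0. It was negative in endothelial-like cells (−1.56) and choroid plexus epithelium-like cells (−0.54). It was positive in mural-like (1.59), oligodendrocyte-like (1.55), ependymal-like (1.29) and fibroblast-like cells (2.53). The difference between classes was not tested, since each class has 1 library per condition. The positive values rest on few UMIs outside mural-like cells: 37 and 14 in oligodendrocyte-like, 15 and 15 in ependymal-like and 19 and 2 in fibroblast-like cells. Free RNA held 38.9 CPM of Flt1 in metastasis and 3.68 CPM in naive, and its part in these values was not tested. With the unnamed cluster nearest to ependymal markers added, the ependymal-like value was 0.95 (−0.12 to 2.05).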

How the results depend on the processing

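The number of members called higher in endothelial-like cells stayed within 1.5 times its value of 6 under all alternatives run but 1: it was 0 with only the shared subclusters, an alternative added after seeing the data. There Flt1 had a log2 ratio of 0.060 and Apln one of −3.74, against −1.56 and 2.24 in the whole class. The number called lower was 1, but 2 with limits of 500 UMIs and 250 genes or with no minimum of UMIs, 3 with cells weighted equally and 0 at 3-fold. The Vegfa ratio over all kept cells was −0.50, and −0.38 with 10 CPM added. Of the other results, 303 of the values under an alternative moved less than their counting interval, 40 moved more and 2 turned. Adding the unnamed ependymal cluster, also chosen after seeing the data, gave a Pgf ratio of −0.74 in place of −1.06. Causes were not tested. No paired analysis was possible because each condition has 1 library and the labels give no replicate numbers. Low sums limit precision: naive endothelial-like cells held 393806 UMIs, where 3 UMIs make 7.62 CPM.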
